A study of Mus musculus with 13 samples.

Results

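Transcripts of 7 genes for RNA-binding proteins linked to amyotrophic lateral sclerosis (ALS) were followed in laser-captured mouse motoneurons: Tardbp, Matr3, Hnrnpa1, Hnrnpa2b1, Tia1, Ewsr1 and Taf15. They were taken by mouse gene symbol from the 48709 gene rows of the count tables, and the choice used no measured value. All 7 had enough counts to be tested, among 17403 genes tested in all. Every mouse carried the SOD1-G93A transgene, a mutant human SOD1 that causes a motoneuron disease resembling ALS. The AAV-miR SOD1 group (n = 4) was injected into the cerebral ventricles at postnatal day 2 with an adeno-associated virus (AAV) whose artificial microRNA against human SOD1 was made in astrocytes. The AAV-miR ctrl group (n = 5) received the control vector in the same way, and the non-injected group (n = 4) was made up of SOD1-G93A littermates. No mouse without the transgene was included, so every difference is between SOD1-G93A mice. At an age of 65 days, 500 motoneurons per mouse were cut from cresyl violet-stained lumbar sections and pooled, so each library stands for 1 mouse. The comparisons ask how motoneurons differ when the transgene is silenced in the astrocytes around them.

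These proteins bind RNA in the nucleus, where they act in splicing, transcription and RNA export, and most also enter cytoplasmic granules. In most patients with ALS the protein made from TARDBP, TDP-43, leaves the nucleus of motoneurons and forms cytoplasmic inclusions, whereas patients with SOD1 mutations generally lack them. Rare mutations in the other genes, often in a low-complexity domain that lets the proteins condense, have been reported in ALS or in related muscle and brain disease. RNA counts show the amount of transcript, not where the protein is.

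Counts assigned to genes ranged from 13897189 to 37414222 per library, and the 4 libraries numbered 5 or 6, all controls, were the deepest. In 2 of the 13 tables the column header contradicted the label. For non-injected replicate 3 the header named AAV-miR ctrl, and for AAV-miR ctrl replicate 3 it named SOD. Labels were followed, and values with the headers followed instead (these 2 libraries exchanged) are given beside the results. Defining motoneuron genes were present in every library, with none of 9 markers at 0. Their score, the mean log2 level of the markers centred over libraries, was lower in AAV-miR SOD1 (-0.68 ± 0.33, SD, n = 4) than in AAV-miR ctrl (0.16 ± 0.61, n = 5) and non-injected libraries (0.48 ± 0.56, n = 4). The score of 8 erythroid (red blood cell lineage) markers ran the other way, at 1.21 ± 0.66, -0.40 ± 0.95 and -0.71 ± 0.82. The summed erythroid marker level was 19558 to 52051 CPM (counts scaled to library size) in AAV-miR SOD1 libraries, 3653 to 30347 in AAV-miR ctrl and 5604 to 19108 in non-injected libraries. The summed motoneuron marker level was 4660 to 9427, 6941 to 16856 and 6653 to 17273 CPM in the same order. Microglia markers also scored higher in AAV-miR SOD1 (0.47 ± 0.19) than in AAV-miR ctrl (-0.02 ± 0.48) and non-injected libraries (-0.44 ± 0.57). Mean scores were lowest in AAV-miR SOD1 for astrocyte (-0.20 ± 0.13, 0.18 ± 0.51 and -0.02 ± 0.13, same order) and oligodendrocyte markers (-0.23 ± 0.53, 0.21 ± 0.83 and -0.02 ± 0.35). Interneuron markers scored -0.11 ± 0.45, 0.05 ± 0.81 and 0.04 ± 0.66. The part of these cell types in the results was not tested. In such pooled material, a smaller share of motoneuron RNA in a capture and lower marker levels per motoneuron cannot be told apart.

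The 7 genes spanned a wide range of levels. Per length of exon, as RPKM (reads per kilobase of exon, scaled to library size) over all 13 libraries, Hnrnpa2b1 was the highest at 74.6 ± 17.5 (SD, n = 13), at percentile 95.5 of the genes tested. Matr3 averaged 14.3 ± 1.99 RPKM (percentile 81.1), Ewsr1 12.8 ± 2.77 (percentile 79.4) and Tardbp 8.21 ± 0.876 (percentile 71.6). Tia1 averaged 1.34 ± 0.356 RPKM (percentile 33.3), Taf15 1.04 ± 0.358 (percentile 28.9) and Hnrnpa1 0.612 ± 0.190 (percentile 19.7). The order was firm at the top, where Hnrnpa2b1 exceeded Matr3 in 13 of 13 libraries. Matr3 and Ewsr1 did not separate, since Matr3 was the higher in 7 of 13 libraries. Ewsr1 exceeded Tardbp, and Tardbp exceeded Tia1, in 13 of 13 libraries, whereas Tia1 exceeded Taf15 and Taf15 exceeded Hnrnpa1 in 11 of 13 each. The length used was that of all annotated exons, which for Tia1 was 15750 bases because 14 of its 28 annotated transcripts retain an intron. With the exons of coding transcripts alone (4483 bases for Tia1) Tia1 stood at 4.70 RPKM and the order of the 7 genes was the same.

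Reads that fit several places or several genes were not assigned to a gene, and this bears unequally on the members. Hnrnpa1 was the extreme: 46.7% of the 50-base windows of its transcripts recurred in transcripts of 20 other genes, 19 of them pseudogenes. Gm10052, a processed pseudogene that shared 46.5% of these windows, had 1 count in all 13 libraries together. Hnrnpa1 had 24 to 109 counts per library, and its place in the order is uncertain. The shared part was 24.5% for Matr3, 23.7% for Ewsr1, 22.1% for Tardbp, 6.57% for Tia1, 1.60% for Hnrnpa2b1 and 0 for Taf15. These shares need not all have been lost. For Matr3, 22.8% of windows lay in Gm28285, an overlapping gene on the same strand that has no row in the count tables. For Tardbp it lay mainly in Masp2, a gene on the opposite strand whose exons overlap 1817 bases of Tardbp exon (23.3%). Masp2 had 9 counts in total. If counting ignored strand, reads in this stretch fit both genes and were not assigned, which would lower the Tardbp level. Reads that fit no gene took 1.71 to 3.16% of a table's total. Whether counting used strand is not given, so the effect on the Tardbp level was not tested.

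**Figure D1:**
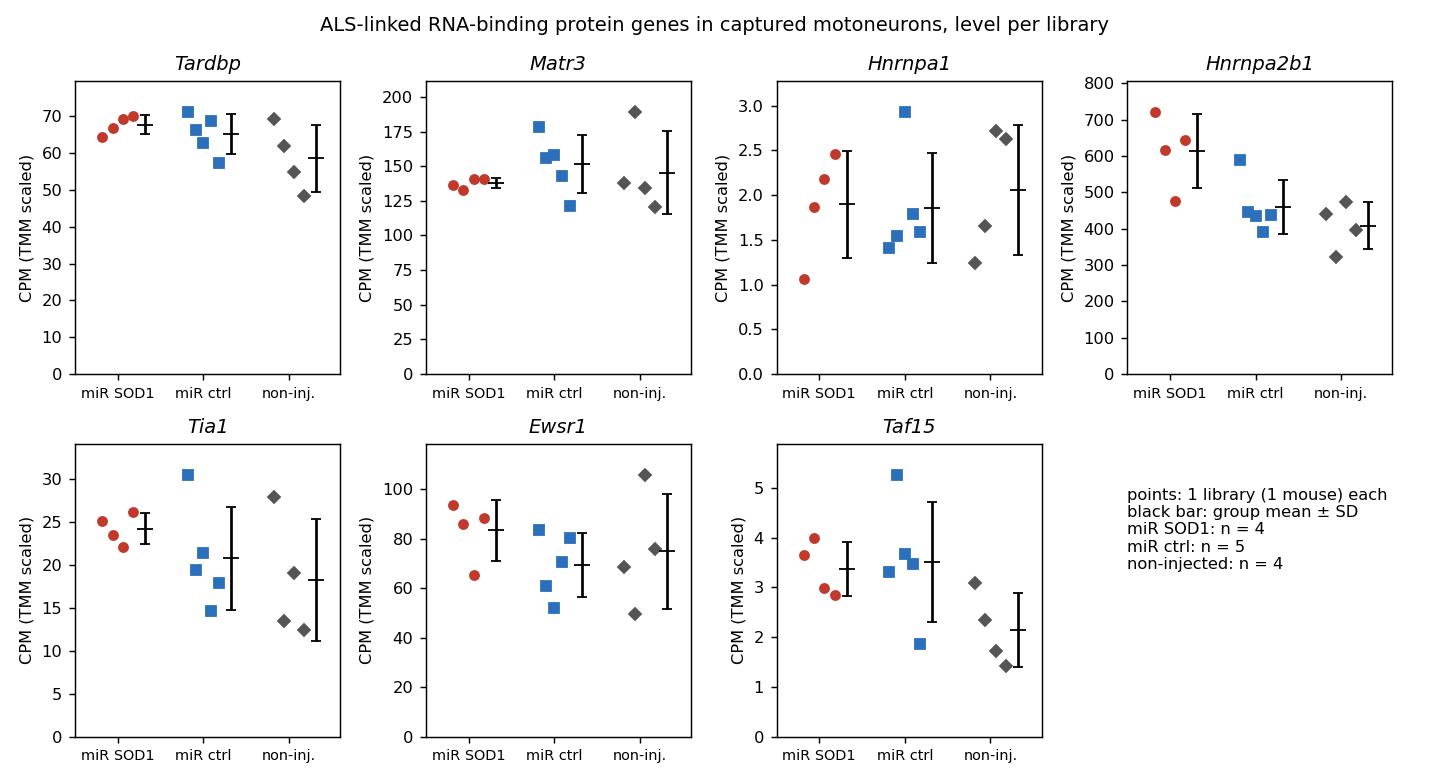
Level of each of the 7 genes in CPM (vertical axes, linear and starting at 0) in every library, by group; points are libraries and black bars the group mean ± SD. Hnrnpa2b1 runs from 476 to 719.7 in AAV-miR SOD1 and from 323 to 588 in the controls, while for the other 6 genes the range of the AAV-miR SOD1 libraries overlaps that of each control group.

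Of the 7, Hnrnpa2b1 showed the clearest difference in mean between the groups. The gene (ENSMUSG00000004980, chr6:51460932-51469894, minus strand, GRCm38) encodes hnRNP A2/B1, an abundant nuclear protein that binds nascent transcripts and takes part in splicing and in the transport of messenger RNA along processes of neural cells. CPM values here and below are scaled between libraries by the trimmed mean of M values (TMM). In AAV-miR SOD1 replicates 1 to 4 Hnrnpa2b1 was at 719.7, 617, 476 and 644 CPM. In AAV-miR ctrl replicates 1, 3, 4, 5 and 6 it was at 588, 446, 436, 389.9 and 438 CPM. Non-injected replicates 2, 3, 5 and 6 had 439.8, 323, 474 and 397 CPM. The AAV-miR SOD1 libraries were thus the highest apart from replicate 3, which lay below AAV-miR ctrl replicate 1 and just above the highest non-injected library. The group means were 614 ± 102 (SD, n = 4), 459 ± 75.1 (n = 5) and 409 ± 65.0 CPM (n = 4).

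In edgeR's quasi-likelihood test, Hnrnpa2b1 was 0.50 ± 0.18 (SE) higher on the log2 scale in AAV-miR SOD1 than in both control groups together, a 1.42-fold difference with a 95% interval of 0.13 to 0.88. The unadjusted p was 0.0124 and the p adjusted over all genes tested was 0.126, so the difference did not pass the threshold of 0.05. Across the genome 22.2% of genes had an unadjusted p under 0.05 in this comparison, and 1 of the 7 members did. The count of members was 0 without AAV-miR SOD1 replicate 1 (12.3% of all genes) and 2 without non-injected replicate 2 (24.2% of all genes). It was also 0 with the replicate number as a block (11.1%) or with the motoneuron (6.27%) or erythroid score (2.01%) as a covariate. By limma-voom with quality weights it was 2 (28.1%). No gene passed after adjustment (0 of 17403 by edgeR, against 3870 at an unadjusted p under 0.05), whereas 1521 genes passed in DESeq2 and 1461 in limma-voom run with quality weights. Hnrnpa2b1 was among those called by both, at 0.54 with adjusted p = 0.0281 by DESeq2 and at 0.54 with adjusted p = 0.0436 by limma-voom. It also passed in edgeR when AAV-miR ctrl replicate 1 was left out (0.56, adjusted p = 0.0498), and over all alternatives the adjusted p ran from 0.0281 to 1.00. P-values measure the spread between these libraries only.

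Against each control group alone the difference was smaller for AAV-miR ctrl and larger for non-injected libraries. Compared with AAV-miR ctrl, Hnrnpa2b1 was 0.42 ± 0.20 higher (edgeR adjusted p = 0.351). In that comparison 14.5% of all genes and 0 of the 7 members had an unadjusted p under 0.05. The count was 1 member in DESeq2 (16.7% of all genes) and in limma-voom (21.9%). In edgeR it was 1 with RLE in place of TMM scaling (14.3%) or with the headers followed (19.9%). It was also 1 without AAV-miR SOD1 replicate 3, AAV-miR ctrl replicate 1 or non-injected replicate 2 or 3 (14.5 to 23.2%). Compared with non-injected libraries Hnrnpa2b1 was 0.59 ± 0.21 higher (edgeR unadjusted p = 0.0146, adjusted p = 0.155). There 20.9% of all genes and 1 of the 7 members had an unadjusted p under 0.05. That count rested on single libraries, on the tool and on the model. It was 4 without non-injected replicate 2 (Hnrnpa2b1, Tia1, Taf15 and Tardbp, where 23.3% of all genes met it) and 3 by limma-voom (24.3% of all genes). It was 0 with the replicate number as a block (8.28%) or with the motoneuron (5.71%) or erythroid score (2.28%) as a covariate. For Hnrnpa2b1 the AAV-miR SOD1 and non-injected libraries did not overlap, by 476 against 474 CPM, which held for 11.7% of all genes and for 1 of the 7 members. DESeq2 gave 0.63 with adjusted p = 0.0366 for the same contrast, within a range of adjusted p from 0.0366 to 0.999 over the alternatives. The control groups differed by 0.17 ± 0.20 (edgeR adjusted p = 1.00), in a comparison where 3.61% of all genes and 0 members had an unadjusted p under 0.05. The count was 1 member in DESeq2 (4.34% of all genes) and in limma-voom (4.42%). It was also 1 in edgeR without AAV-miR ctrl replicate 6 (3.65%) or non-injected replicate 2 (5.66%). With the headers followed, the difference from AAV-miR ctrl was 0.50, that from non-injected libraries 0.48, and that from both 0.49. These comparisons share libraries and are not independent of each other.

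The erythroid score moved with Hnrnpa2b1 and, less evenly, the motoneuron score moved against it. The 2 libraries with the highest Hnrnpa2b1 level among all and among controls, AAV-miR SOD1 replicate 1 and AAV-miR ctrl replicate 1, also had the highest erythroid score of their group, at 1.78 and 0.71. AAV-miR SOD1 replicate 3, the lowest of its group for Hnrnpa2b1, had the lowest erythroid score of its group at 0.30 but also the lowest motoneuron score of all 13 libraries, at -0.97. Non-injected replicate 5, the highest of its group, had a motoneuron score of 0.68 and an erythroid score of -0.48. At the other end, non-injected replicate 3 had the lowest Hnrnpa2b1 level and the highest motoneuron score, at 1.06. With the motoneuron score as a covariate in the edgeR fit the difference from both control groups was 0.29 ± 0.21 (adjusted p = 0.778), and with the erythroid score it was 0.08 ± 0.21 (adjusted p = 1.00). Group, motoneuron score and erythroid score moved together across these libraries, and their parts in the Hnrnpa2b1 difference cannot be told apart.

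**Figure D2:**
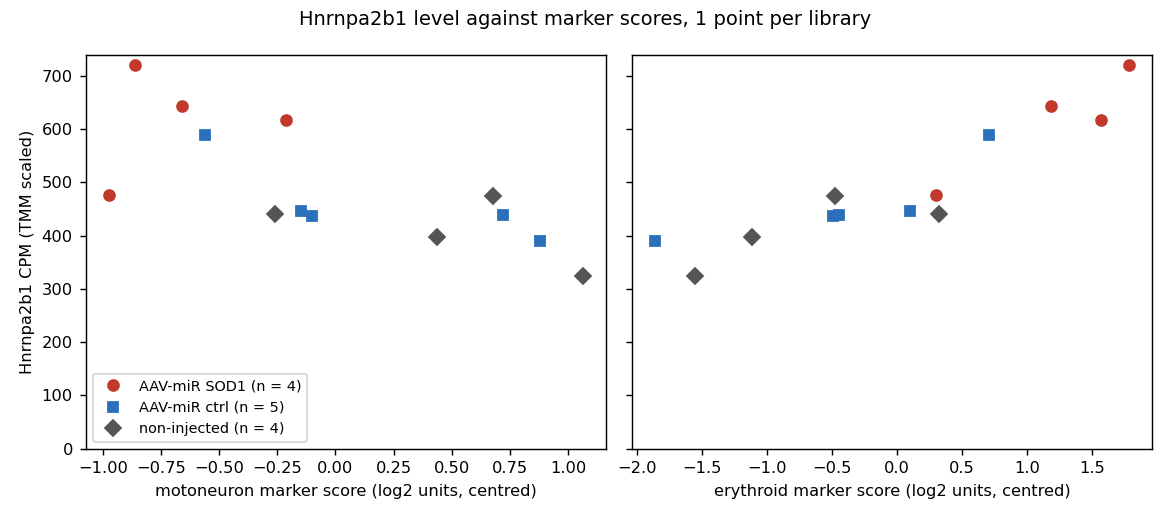
Hnrnpa2b1 level in CPM (vertical axes) against the motoneuron marker score (left) and the erythroid marker score (right), both in log2 units centred over the 13 libraries; each point is 1 library, shaped by group. Levels are mostly higher at high erythroid and low motoneuron scores, with AAV-miR SOD1 replicate 1 (719.7 CPM, erythroid score 1.78) at the upper end and non-injected replicate 3 (323 CPM, erythroid score -1.56) at the lower. AAV-miR SOD1 replicate 3 (476 CPM, motoneuron score -0.97) and non-injected replicate 5 (474 CPM, motoneuron score 0.68) have nearly the same level at opposite motoneuron scores.

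Hnrnpa1 (ENSMUSG00000046434, chr15:103240432-103246692, plus strand) encodes the closest relative of hnRNP A2/B1 among the members, a splicing regulator that shuttles between nucleus and cytoplasm. It was at 1.07, 1.87, 2.18 and 2.47 CPM in AAV-miR SOD1, at 1.41, 1.54, 2.92, 1.79 and 1.59 in AAV-miR ctrl, and at 1.25, 1.65, 2.72 and 2.62 in non-injected libraries, each in the order of replicates used above. The groups overlapped throughout. The difference between AAV-miR SOD1 and both control groups was -0.04 ± 0.36 on the log2 scale (edgeR adjusted p = 0.961), with a 95% interval from -0.81 to 0.72, which leaves room for differences of that size in either direction. Its direction turned with the erythroid score as a covariate (0.38) and with libraries numbered 1 to 4 alone (0.18).

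Tardbp and Matr3 encode nuclear proteins that bind transcripts at introns. TDP-43, from Tardbp (ENSMUSG00000041459, chr4:148612382-148627019, minus strand), represses unannotated exons and regulates its own messenger RNA. Tardbp was at 64.5, 66.9, 69.3 and 70.2 CPM in AAV-miR SOD1 replicates 1 to 4, at 71.1, 66.3, 62.9, 68.7 and 57.2 in AAV-miR ctrl, and at 69.2, 61.8, 55.0 and 48.3 in non-injected libraries. Every library lay between 48.3 and 71.1 CPM, and the AAV-miR SOD1 libraries sat within the span of the AAV-miR ctrl libraries. The difference from both control groups was 0.13 ± 0.13 (edgeR adjusted p = 0.606), with a 95% interval from -0.15 to 0.42. Against non-injected libraries alone it was 0.21 ± 0.16 (edgeR adjusted p = 0.473), and against AAV-miR ctrl 0.05 ± 0.15 (edgeR adjusted p = 0.904).

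Matr3 (ENSMUSG00000037236) encodes matrin 3, a protein of the nuclear matrix that binds RNA and DNA. It was at 137, 133, 141 and 141 CPM in AAV-miR SOD1, at 179, 156, 158, 143 and 122 in AAV-miR ctrl, and at 138, 189, 134 and 120.3 in non-injected libraries. The AAV-miR SOD1 libraries lay close together inside a wider range of controls, with an SD of 0.04 on the log2 scale against 0.23 over the 9 control libraries. The mean differed by -0.10 ± 0.16 from both control groups (edgeR adjusted p = 0.744), with a 95% interval from -0.44 to 0.23. The highest value belonged to non-injected replicate 3, a table whose header contradicted its label. With the headers followed, the difference from non-injected libraries alone went from -0.08 to 0.01.

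Tia1 (ENSMUSG00000071337, chr6:86404219-86433405, plus strand) encodes a cytotoxic granule-associated protein that nucleates stress granules and regulates splicing. It was at 25.2, 23.5, 22.1 and 26.2 CPM in AAV-miR SOD1, at 30.5, 19.5, 21.4, 14.6 and 17.9 in AAV-miR ctrl, and at 28.0, 13.4, 19.1 and 12.4 in non-injected libraries. The highest level in each control group exceeded all AAV-miR SOD1 libraries, and the lowest lay well below them. Tia1 was 0.32 ± 0.23 higher in mean than in both control groups (edgeR adjusted p = 0.455, 95% interval -0.18 to 0.82). The sign turned with either marker score as a covariate, to -0.19 ± 0.24 with the motoneuron score and -0.32 ± 0.23 with the erythroid score. Scores and group moved together here too, and their parts cannot be told apart.

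Ewsr1 and Taf15 belong to the FET family of nuclear proteins, which bind RNA and DNA and contact RNA polymerase and splicing factors. Ewsr1 (ENSMUSG00000009079, chr11:5069689-5099266, minus strand) was at 93.8, 86.0, 65.4 and 88.4 CPM in AAV-miR SOD1, at 83.3, 60.9, 52.0, 70.5 and 80.2 in AAV-miR ctrl, and at 68.4, 49.7, 105.7 and 75.8 in non-injected libraries. The highest and the lowest library were both non-injected. The difference from both control groups was 0.21 ± 0.20 (edgeR adjusted p = 0.576), with a 95% interval from -0.21 to 0.63. At its start, 258 exonic bases overlap with Rhbdd3 on the opposite strand, whose difference was -0.22 ± 0.19 (edgeR adjusted p = 0.544). Whether counting used strand is not given in the sources used here, so reads in this stretch cannot be assigned with certainty.

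Taf15 (ENSMUSG00000020680, chr11:83473086-83506743, plus strand) was at 3.65, 3.98, 2.99 and 2.84 CPM in AAV-miR SOD1, at 3.31, 5.25, 3.67, 3.47 and 1.86 in AAV-miR ctrl, and at 3.09, 2.33, 1.72 and 1.43 in non-injected libraries. These levels rested on 41 to 132 counts per library. Both injected groups had higher means than the non-injected libraries, by 0.65 ± 0.38 for AAV-miR SOD1 (edgeR adjusted p = 0.335) and by 0.71 ± 0.36 for AAV-miR ctrl (edgeR unadjusted p = 0.0669, adjusted p = 1.00). AAV-miR SOD1 and AAV-miR ctrl differed by -0.06 ± 0.35 (edgeR adjusted p = 0.957). The higher level with the control vector rested on the labels of the doubtful pair: with the headers followed it was 0.03 ± 0.40, and the AAV-miR SOD1 difference from non-injected libraries was 0.24 ± 0.42. AAV-miR ctrl replicate 3, the highest Taf15 library, and non-injected replicate 3 were the exchanged tables.

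**Figure D3:**
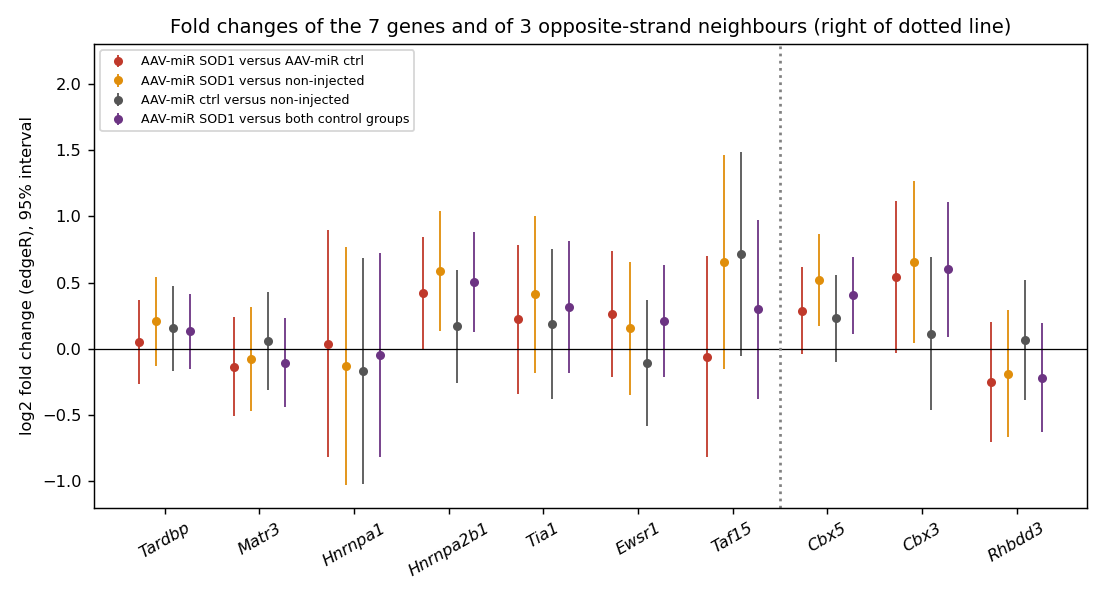
Log2 fold changes (vertical axis) with 95% intervals from edgeR for the 7 genes and, right of the dotted line, for 3 genes on the opposite strand that start within 1 kb of a member, in 4 comparisons by colour. For 6 of the 7 genes every interval includes 0, and for Hnrnpa2b1 the intervals against non-injected libraries and against both control groups (0.13 to 0.88) lie above 0.

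The 7 genes differed in how much they varied between mice, whatever the group. The SD of log2 CPM over the 13 libraries was 0.16 for Tardbp and 0.19 for Matr3, against a median of 0.58 over all genes tested. Only 1.10% of tested genes varied less than Tardbp and 2.64% less than Matr3. Low counts add noise, so the comparison was repeated among genes with a mean log2 CPM of at least 4, where 2.35% and 5.51% varied less. Ewsr1 (0.32), Hnrnpa2b1 (0.33), Tia1 (0.40), Hnrnpa1 (0.43) and Taf15 (0.52) varied more. Among the 21 pairs, the SD over libraries of the log2 difference was smallest for Tardbp and Matr3 (0.19). Both genes varied little themselves, and 0.19 is above the SD of Tardbp alone (0.16). It does not show that they moved together. The SD of the difference was 0.26 for Hnrnpa2b1 with Ewsr1 and with Tia1, below the SD of each of these genes alone. It was largest for Hnrnpa1 and Taf15 (0.79). The Hnrnpa2b1 to Ewsr1 ratio of CPM was 7.35 ± 0.221 in AAV-miR SOD1 (SD, n = 4), 6.75 ± 1.25 in AAV-miR ctrl (n = 5) and 5.67 ± 0.978 in non-injected libraries (n = 4).

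**Figure D4:**
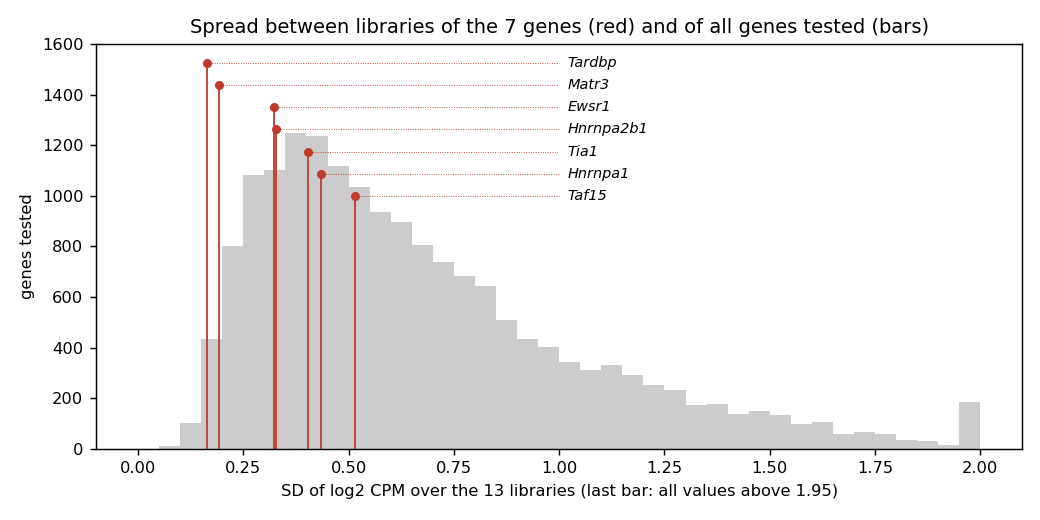
Number of tested genes (vertical axis, grey bars) by SD of log2 CPM over the 13 libraries (horizontal axis), with the 7 genes marked in red at their own SD. Tardbp (0.16) and Matr3 (0.19) lie at the left edge of the distribution, and all 7 lie below the median of 0.58.

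The measure used for pairs, the SD of the centred log2 difference over the 13 libraries, is also small where both genes vary little. By this measure, the genes nearest to each member were found among genes with a mean log2 CPM of at least 4. For Hnrnpa2b1 these were H3f3b, which encodes histone H3.3 (0.11), Dazap2 (0.12) and Snrnp40, a protein of the U5 small nuclear ribonucleoprotein (0.13). Their own log2 differences between AAV-miR SOD1 and both control groups were 0.56, 0.40 and 0.49. These 3 genes were picked for following Hnrnpa2b1 over the same 13 libraries, so differences near its own follow from the choice and add no support. For Tardbp the nearest genes were Sub1, Mesd and Tbrg1 (0.10 each), and for Matr3 Tmem167 (0.08), Myl6 (0.12) and Trappc5 (0.12). Nearest to Ewsr1 were Acd (0.14), Nono, an RNA-binding protein of paraspeckles (0.15), and Ifngr1 (0.15). Nearest to Tia1 were Clk1, a kinase of splicing factors (0.16), 1700123O20Rik (0.17) and Nxt1, an adaptor of messenger RNA export (0.18). The nearest genes to the weakly counted Taf15 (Tpcn1 0.29, Atp13a3 0.31, Med13 0.32) and Hnrnpa1 (Afdn 0.25, Rcor3 0.29, Trnt1 0.30) were farther off. All genes share library, depth and cell content, and these distances are descriptions.

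Both hnRNP A members start head to head with a gene for heterochromatin protein 1 (HP1), a binder of methylated histone H3. The start of Hnrnpa1 lies 616 bases from that of Cbx5 (HP1 alpha), and that of Hnrnpa2b1 466 bases from that of Cbx3 (HP1 gamma). The sequences below are the 250 bases upstream of the RefSeq transcription starts (GRCm38.p6) that lie between the starts of each pair, read 5′ to 3′ on the strand of the hnRNP gene, and are shown because both genes of each pair are compared below. Capitals mark matches of 4 motifs on either strand: the CCAAT box (its name gives its letters), the GC box with the letters GGGCGG, the core of a cAMP response element with the letters TGACG, and the core of a YY1 site with the letters ATGGCGG.
Hnrnpa1, chr15:103240147-103240396, plus strand: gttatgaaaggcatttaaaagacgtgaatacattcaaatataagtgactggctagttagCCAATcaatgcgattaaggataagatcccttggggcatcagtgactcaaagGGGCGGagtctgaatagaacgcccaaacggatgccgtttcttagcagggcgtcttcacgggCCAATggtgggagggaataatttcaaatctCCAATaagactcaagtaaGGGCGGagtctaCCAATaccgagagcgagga
Hnrnpa2b1, chr6:51469895-51470144, minus strand: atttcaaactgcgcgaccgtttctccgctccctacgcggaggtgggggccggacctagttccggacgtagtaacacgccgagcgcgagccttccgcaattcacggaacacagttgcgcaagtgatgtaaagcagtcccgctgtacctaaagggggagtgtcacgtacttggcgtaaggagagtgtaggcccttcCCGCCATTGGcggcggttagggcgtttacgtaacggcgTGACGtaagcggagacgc

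The Hnrnpa1 window held 4 CCAAT boxes and 2 GC boxes, and the Hnrnpa2b1 window held 1 CCAAT box and 1 YY1 core that overlap, both on the other strand, and 1 TGACG. Among 32851 RefSeq promoter windows of this length, 33.8% held a CCAAT box, 32.7% a GC box, 17.8% TGACG and 2.21% the YY1 core. TATAAA, which 12.4% of windows held, and CACGTG, which 6.02% held, were in neither window. Promoter windows were found for 6 of the 7 members. A match of letters is a description and shows no binding.

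Both neighbours, like Hnrnpa2b1, had their highest group mean in AAV-miR SOD1. Cbx3 was at 12.6, 14.1, 8.20 and 11.4 CPM in AAV-miR SOD1, at 10.3, 8.19, 8.17, 6.78 and 6.33 in AAV-miR ctrl, and at 9.50, 9.17, 6.19 and 4.59 in non-injected libraries. Its difference from both control groups was 0.60 ± 0.24 (edgeR unadjusted p = 0.0236, adjusted p = 0.159). Cbx5 was at 88.7, 92.7, 75.5 and 75.0 CPM in AAV-miR SOD1, at 82.8, 70.7, 65.1, 62.7 and 58.8 in AAV-miR ctrl, and at 61.0, 54.7, 62.1 and 53.9 in non-injected libraries. The AAV-miR SOD1 libraries were all above the non-injected ones for Cbx5, and 11.7% of all genes likewise did not overlap between these groups. The Cbx5 difference from both control groups was 0.40 ± 0.13 (edgeR unadjusted p = 0.00975, adjusted p = 0.119). Neither passed the adjusted threshold. An unadjusted p under 0.05 was met by 22.2% of all genes in the main fit, in either direction. At this threshold 0 of these neighbours were higher with the motoneuron score (6.27% of all genes) or the erythroid score (2.01%) as a covariate. The count was also 0 with the replicate block (11.1%) and with libraries numbered 1 to 4 alone (14.2%). It was 1 without AAV-miR SOD1 replicate 1 (12.3%) or 2 (17.3%). The log2 distance over libraries was 0.33 between Hnrnpa2b1 and Cbx3 and 0.57 between Hnrnpa1 and Cbx5, against medians of 0.54 and 0.59 to all genes of sufficient level. By distance Cbx3 would rank 1046 among 7943 such genes for Hnrnpa2b1, though its own level was below that limit. Cbx5 ranked 3534 among 7944 for Hnrnpa1, and their distance was above the SD of Hnrnpa1 alone (0.43).

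Genes that work with these proteins were read from 6 lists. In the comparison with both control groups, none of their 90 genes passed after adjustment in edgeR, against 7 in DESeq2 and 9 in limma-voom. The counts below are at an unadjusted p under 0.05, which 10.2% of all genes met with a higher and 12.1% with a lower level. All genes tested had a median log2 difference of -0.06, with 45.8% above 0. Among the 7 members 5 were above 0, and their median was 0.21.

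With a marker score as a covariate, the share of all genes at this threshold fell from 22.2% to 6.27% (motoneuron score) and 2.01% (erythroid score), and the counts under those fits are read against these shares. When 1 library was left out, the share ran from 12.3% (without AAV-miR SOD1 replicate 1) to 27.9% (without AAV-miR ctrl replicate 1).

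Of 24 other hnRNP genes, 6 were higher and 1 lower, 20 had a difference above 0, and the median was 0.27. Hnrnpul1 had the smallest p of the list, at 53.7 to 87.8 CPM in AAV-miR SOD1 and 36.7 to 55.5 CPM in the controls (0.70 ± 0.17, edgeR adjusted p = 0.0960). Ptbp2, the neuronal polypyrimidine tract-binding protein, was the lower gene (-0.58 ± 0.24, edgeR adjusted p = 0.173), while its non-neuronal paralogue Ptbp1 was at 0.77 ± 0.28 (edgeR adjusted p = 0.137). The other higher genes were Hnrnpf (0.68), Hnrnpr (0.45), Hnrnpm (0.42) and Syncrip (0.32), which like Ptbp1 were named after their values had been seen. With the motoneuron score as a covariate 3 of the 24 genes were higher and 0 lower, and with the erythroid score 0 and 0. The count of higher genes was 2 without AAV-miR SOD1 replicate 1 and 3 without AAV-miR SOD1 replicate 2 or non-injected replicate 3. It was 8 without AAV-miR SOD1 replicate 3.

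Of 20 genes for stress granule proteins, the partners of Tia1, 3 were higher and 2 lower, with a median of 0.04. Pabpc1, the cytoplasmic poly(A)-binding protein, ranged from 255 to 446 CPM with AAV-miR SOD1 and from 82.0 to 327 CPM in the controls (1.10 ± 0.29, edgeR adjusted p = 0.0960). Fxr2, a relative of the fragile X protein, was lower (-0.62 ± 0.19, edgeR adjusted p = 0.104). Its means were 45.5 CPM in AAV-miR SOD1, 55.1 in AAV-miR ctrl and 88.5 in non-injected libraries. AAV-miR ctrl was itself lower than non-injected libraries (-0.68 ± 0.20, edgeR unadjusted p = 0.00442, not passing after adjustment). Against AAV-miR ctrl alone, AAV-miR SOD1 was at -0.28 ± 0.20 (edgeR adjusted p = 0.550). Pum2 (0.64), Ddx6 (0.35) and G3bp2 (-0.31) made up the rest. The count of higher genes was 1 without AAV-miR SOD1 replicate 2, and that of lower genes was 1 without any 1 library other than AAV-miR ctrl replicate 1. With the motoneuron score 1 was higher and 0 lower, and with the erythroid score 0 and 0. Among 16 nuclear transport genes, which carry these proteins through the nuclear pore, 2 were higher and 0 lower, and the median was 0.00: the exporter Xpo1 (0.50 ± 0.16, edgeR adjusted p = 0.112) and Rcc1 (0.69), the exchange factor of Ran. Kpna4, an importin alpha, had the smallest p of those with a lower mean (-0.37 ± 0.19, edgeR adjusted p = 0.260).

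Among 10 genes of nonsense-mediated decay, 1 was higher and 0 lower, with a median of 0.11. It was Smg6, the endonuclease of the pathway (0.40 ± 0.18, edgeR adjusted p = 0.205), and Smg9 had the smallest p of those with a lower mean (-0.23 ± 0.19, edgeR adjusted p = 0.529). Of 12 genes for proteins of the spliceosomal U snRNPs, 2 were higher and 0 lower, with a median of 0.12. They were Snrnp70, of the U1 particle (0.56 ± 0.18, edgeR adjusted p = 0.112), and Snrpg (0.80), of the Sm ring, and Snrpa had the smallest p on the lower side (-0.23 ± 0.20, edgeR adjusted p = 0.531). With either marker score as a covariate, 0 genes of the nuclear transport, nonsense-mediated decay and U snRNP lists met the threshold. The U snRNP count of higher genes was 4 without non-injected replicate 2 or 3. The nonsense-mediated decay count was 0 without AAV-miR SOD1 replicate 1, 2 or 4, AAV-miR ctrl replicate 4 or 5, or non-injected replicate 3 or 6. Pum2, Ddx6, G3bp2, Rcc1 and Snrpg were named after their values had been seen.

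The last list held 8 transcripts known to fall when TDP-43 is depleted from the mouse nervous system, mostly with long introns. All 8 had a difference below 0, 4 of them at an unadjusted p under 0.05, with a median of -0.59. The 4 became 2 without AAV-miR SOD1 replicate 3 and 6 without non-injected replicate 6. Chat, the enzyme that makes acetylcholine, had the smallest p, at 39.1 to 66.8 CPM in AAV-miR SOD1 and 73.8 to 155 CPM in the controls (-0.91 ± 0.24, edgeR adjusted p = 0.0960). The groups did not overlap for Chat, as for 1.82% of all genes. Kcnd2 (-0.80), a gene of a potassium channel, and Cadps (-0.65), of vesicle release, were also among the 4 and were named after their values had been seen. Chat also belongs to the motoneuron markers, of which 9 of 9 were lower at an unadjusted p under 0.05, with a median of -1.04. With the motoneuron score as a covariate, 0 of the 8 transcripts were lower at that threshold, and with the erythroid score 0 were lower and 1 higher, at the lower shares of all genes given above. Because Chat is itself part of the motoneuron score, its result with that covariate was partly fixed in advance. Tardbp itself did not pass in this comparison. The motoneuron score and the level of these transcripts moved together and cannot be told apart here.

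**Figure D5:**
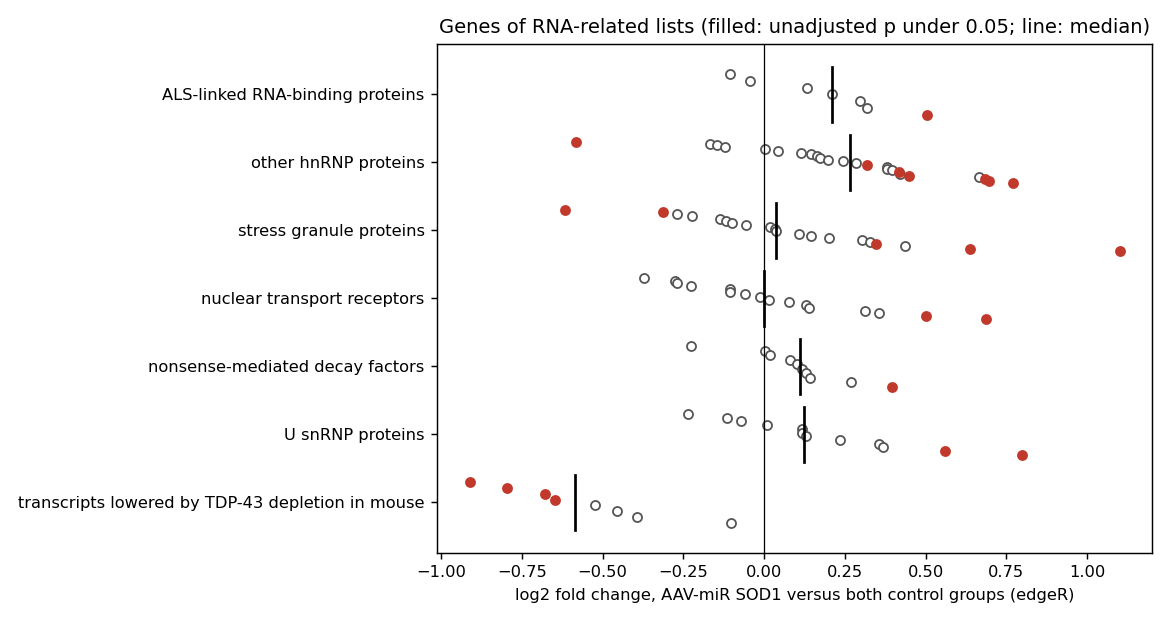
Log2 fold change of AAV-miR SOD1 against both control groups (horizontal axis, edgeR) for each gene of the members and of 6 lists (rows; height within a row only separates the points); filled points have an unadjusted p under 0.05 and black lines are list medians. The other hnRNP genes centre at 0.27, the nuclear transport genes at 0.00 and the transcripts lowered by TDP-43 depletion at -0.59.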

How the data were processed

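The deposited values were raw read counts per gene, which the authors made with HTSeq 0.6.1 after trimming with cutadapt 1.8 and alignment with STAR 2.5.2b to GRCm38, per the submitters' processing notes. Annotation release, counting mode and strand setting are not given in the sources used here. Per the labels' protocols, cDNA was amplified with the SMARTer Ultra Low kit and made into libraries with Nextera XT; no molecular identifiers are mentioned, so counts are reads and not molecules. Each table held 48709 gene rows and 5 summary rows, which stayed out of library sizes and tests; reads fitting several places took 42.3 to 56.8% of a table's total. Symbols, exons and coordinates came from GENCODE M21 (GRCm38), which named 48349 rows holding 99.986% of counts, and promoters from RefSeq (GRCm38.p6).

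Groups followed the sample titles. Genes were kept by edgeR's filterByExpr (minimum count 10, minimum total 15), scaled by TMM and tested in edgeR 4.0.16 (R 4.3.3) by quasi-likelihood F tests over all 13 libraries with the 3 groups as levels, in 4 comparisons, adjusted by Benjamini-Hochberg over 17403 genes at a threshold of 0.05. The common biological coefficient of variation was 0.470. Log2 CPM used a prior count of 2, and 3 counts correspond to 0.0802 to 0.216 CPM. The fits were tested on simulated data. Alternatives were RLE and upper quartile scaling, no filter or a CPM filter, DESeq2 1.42.0, voom in limma 3.58.1 (weighted by sample quality), fits on only the groups compared, a block for the replicate number, libraries numbered 1 to 4, the column headers, 2 marker scores as covariates, and leaving out each library.

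The members, gene lists and alternatives were chosen with earlier results of these data known. Named were all members, from each list the gene with the smallest p in each direction against both control groups, the 3 most similar genes per member, and genes starting head to head within 1 kb. A gene of one list is not reported here by name.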

Additional observations from a re-analysis of the deposited data

Results flagged for a closer look

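In 2 of the 21 combinations of gene and group, a library lay apart from the others by more than Dixon's 95% critical value, where chance alone gives about 1 in 20, or 1.05 of 21. AAV-miR ctrl replicate 1 had 588 CPM of Hnrnpa2b1, against 389.9 to 446 in the other 4 libraries of its group. It is the library without which the Hnrnpa2b1 difference from both control groups passed in edgeR (0.56, adjusted p = 0.0498, in a range from 0.0281 to 1.00 over all alternatives), and its erythroid score of 0.71 was the highest of its group. AAV-miR ctrl replicate 4, the shallowest library with 13897189 counts, had 2.92 CPM of Hnrnpa1 (39 counts), against 1.41 to 1.79 in the others.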

How the results depend on the processing

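Of 693 values of the 7 genes under alternatives, 642 kept their direction and their side of the threshold, 4 (Hnrnpa2b1 by DESeq2 in 2 comparisons, by limma-voom, and without AAV-miR ctrl replicate 1) passed it, and 47 changed sign, none of them past the threshold; the cause was not tested. Where edgeR made 0 calls, DESeq2 called 180 genes (AAV-miR SOD1 versus AAV-miR ctrl), 1025 (versus non-injected), 2 (AAV-miR ctrl versus non-injected) and 1521 (versus both). For the last, limma-voom called 1461 and the unfiltered fit 1. Leaving out 1 library gave 0 to 1694 calls (121 without AAV-miR SOD1 replicate 3, 1 without replicate 4, 1694 without AAV-miR ctrl replicate 1). Hnrnpa2b1 kept its sign against every control grouping in all alternatives run, at 0.03 to 0.58 versus AAV-miR ctrl, 0.12 to 0.76 versus non-injected and 0.08 to 0.67 versus both.

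Replicate numbers showed no clear pairing: 3 of 8 same-numbered pairs had a correlation of deviations over 0.1 (-0.19 to 0.24), and 3 of 13 libraries were closest to their own number. The median correlation was 0.023 for these 8 pairs and -0.0067 for the 48 other pairs. Pairs are few and 2 tables have doubtful labels, and pairing by litter or batch was not tested. With the replicate number as a block, Hnrnpa2b1 was 0.42 higher versus both (adjusted p = 0.463) and calls stayed at 0. The block turned the sign of Tardbp versus AAV-miR ctrl (-0.040), of Matr3 between the controls (-0.011) and of Hnrnpa1 versus both (0.10).

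Versus AAV-miR ctrl, other signs turned for Tardbp with the erythroid (-0.0030) and motoneuron score (-0.028), Hnrnpa1 with libraries 1 to 4 (-0.034) and limma-voom (-0.032), Tia1 with the erythroid (-0.37) and motoneuron score (-0.20), and Taf15 with the headers followed (0.20). Leaving out libraries there gave -0.11 to 0.25 for Hnrnpa1 and -0.20 to 0.19 for Taf15. Versus non-injected, they turned for Matr3 with the headers followed (0.0082), Hnrnpa1 with the erythroid score (0.34), libraries 1 to 4 (0.40) and motoneuron score (0.045), Tia1 with the erythroid (-0.27) and motoneuron score (-0.18), and Ewsr1 with the erythroid score (-0.14). Leaving out libraries gave -0.16 to 0.072 for Matr3, -0.28 to 0.071 for Hnrnpa1 and -0.0023 to 0.41 for Ewsr1.

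Between the controls, they turned for Hnrnpa1 (0.43) and Ewsr1 (0.16) with libraries 1 to 4, and for Hnrnpa2b1 (-0.014) and Tia1 (-0.011) with the headers followed. Leaving out libraries gave -0.022 to 0.21 for Matr3, -0.38 to 0.018 for Hnrnpa1 and -0.26 to 0.12 for Ewsr1. Versus both, they turned for Hnrnpa1 with the erythroid score (0.38), libraries 1 to 4 (0.18), the motoneuron score (0.10) and upper quartile scaling (0.016), Tia1 with the erythroid (-0.32) and motoneuron score (-0.19), and with the erythroid score Ewsr1 (-0.063) and Taf15 (-0.013). Leaving out libraries gave -0.20 to 0.15 for Hnrnpa1. The fit of the groups compared alone uses all libraries in the last comparison and gave no separate value. Hnrnpa1 and Taf15 had 24 to 132 counts per library, and the part of counting noise in their spread was not tested.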
